A study of Mus musculus with 10 samples.

Results

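Among 5 RNA-seq libraries of proximal jejunum from mice labelled HuR cKO, cKO 3 and cKO 5 had almost no reads of the clock gene Per2, while cKO 1, cKO 2 and cKO 4 had many. These 2 low-Per2 libraries, out of 5 cKO and 10 libraries in all, are described here against the other 3 cKO libraries. They were chosen by a limit of 100 normalised reads of Per2, so the split itself comes from a measured value, and every gene of the same libraries shares that choice. The values below are therefore given library by library as a description, with no test. Per2 had 393, 342 and 526 normalised reads in cKO 1, cKO 2 and cKO 4, and 12.7 and 16.03 in cKO 3 and cKO 5, from 16 and 20 reads. The 5 WT libraries (WT 1, 3, 4, 5 and 6, in this order wherever 5 WT values are given) had 734, 529, 749, 696 and 689.8, so all cKO libraries lay under the WT range and the low-Per2 pair far under it. The values nearest to the limit were 16.03 in cKO 5 and 342 in cKO 2, so no cKO library lay close to it.

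The study deleted HuR, the RNA-binding protein encoded by Elavl1, in the intestinal epithelium of mice and compared them with WT littermates, with fat absorption as its subject. Total RNA came from proximal jejunum, with 1 library per mouse, 5 labelled WT and 5 labelled cKO, and no diet, drug or other treatment is named. The promoter that drives the deletion, and the age, sex, litter, feeding state and time of day at which each mouse was sampled, stand in none of the sources used here. Tissue of the jejunum holds crypt and villus epithelium together with immune, vascular, muscle and nerve cells. Elavl1 had 725, 639 and 619 normalised reads in cKO 1, cKO 2 and cKO 4, 628 and 556 in cKO 3 and cKO 5, and 630.5 to 709 in WT. A count over the whole gene, with the deleted part not given in the labels, does not check which mice lack the protein, so cKO means a library labelled cKO throughout. The epithelial marker Epcam had 23801 and 38128 normalised reads in cKO 3 and cKO 5, 43375, 38431 and 51791 in cKO 1, cKO 2 and cKO 4, and 46656 to 52224 in WT. Cdh1, another epithelial marker, had 13816 and 21714, then 13562, 13549 and 18990, and 11063 to 18838 in the same order of libraries.

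The circadian clock of mammalian cells is a loop in which the transcription factors CLOCK (or NPAS2) and ARNTL, also called BMAL1, switch on genes through E-box sequences, and the PER and CRY proteins made from some of those genes then hold them back. REV-ERB receptors (Nr1d1, Nr1d2) and ROR receptors compete at a sequence called RORE to repress or activate Arntl. The PAR bZIP factors DBP, TEF and HLF act against NFIL3 at D-boxes. Transcripts of Arntl and Nfil3 peak at other times of day than those of Per2 and Dbp. In the intestine the clock is set by feeding as well as by light, and many genes of digestion, transport and cell division follow a daily rhythm.

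Promoter sequences are shown only for clock genes whose promoter held a motif, because the clock factors act through the motifs in capitals. They come from the RefSeq table of mouse promoters on GRCm38.p6, the assembly of the mm10 build used for the counts, which gives 250 bases before to 50 bases after each start. These motifs are CACGTG (E-box), TTATGTAA or TTACGTAA (D-box) and AGGTCA preceded by AANT (RORE, N being any base), each searched on both strands. No promoter shown held more than 1 kind of motif. In the repressor and PAR bZIP lists, the promoters of Cry2, Nr1d1, Nr1d2, Dbp, Hlf and Nfil3 held none of these motifs.
Per1, chr11:69098748-69098823, plus strand, E-box: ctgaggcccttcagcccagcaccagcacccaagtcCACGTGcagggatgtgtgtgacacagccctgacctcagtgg
Ciart, chr3:95882232-95882379, minus strand, E-boxes: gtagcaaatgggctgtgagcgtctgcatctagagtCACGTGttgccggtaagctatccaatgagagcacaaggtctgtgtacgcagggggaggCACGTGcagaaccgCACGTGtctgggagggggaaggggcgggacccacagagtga
Cry1, chr10:85185074-85185149, minus strand, E-box: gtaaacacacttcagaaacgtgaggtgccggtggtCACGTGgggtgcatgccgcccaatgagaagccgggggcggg
Tef first start, chr15:81802511-81802586, plus strand, E-box: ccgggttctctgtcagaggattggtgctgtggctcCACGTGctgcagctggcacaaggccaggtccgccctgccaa
Tef second start, chr15:81811241-81811316, plus strand, E-box: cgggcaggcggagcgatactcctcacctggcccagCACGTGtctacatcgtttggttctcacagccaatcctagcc
Per3, chr4:151044781-151044905, minus strand, D-boxes: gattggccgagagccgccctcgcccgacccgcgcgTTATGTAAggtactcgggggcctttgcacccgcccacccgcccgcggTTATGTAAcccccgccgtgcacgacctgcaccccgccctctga
Arntl, chr7:113207528-113207557, plus strand, RORE: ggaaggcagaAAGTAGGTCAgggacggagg
The E-box of Per1 ended 161 bases before the start, that of Cry1 55 bases before it, and those of Ciart 111, 53 and 39 bases before it. Tef held an E-box at both of its listed starts, 122 and 133 bases upstream, and Per3 held its D-boxes 198 and 151 bases upstream. The RORE of Arntl lay just past the start, from base 28 of the transcribed side. Of all 32851 promoters in the table, 7.15% held the E-box, 1.06% the D-box and 0.219% the RORE. In the clock repressor list, 8 of 10 genes matched, and 4 of their 9 promoters held an E-box (Per1, Ciart, Cry1 and Bhlhe41), while Per2 and Bhlhe40 had no entry. An E-box stood in none of 10 activator promoters and in 1 of 12 promoters of clock outputs, that of Lonrf3, which was not among the measured genes. Among all genes counted by the rule for a gap between the libraries, 67 of 103 lower and 34 of 53 higher genes had an entry. The E-box stood in 12 of 79 promoters of lower genes (15.2%) and in 8 of 47 of higher genes (17%). For the D-box the shares were 1.27% and 0%, and for the RORE 0% and 2.13%. Nothing is read from these shares, because the contrast that chose the libraries also chose the genes. These matches describe letters in a window and are not measured binding sites.

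Depth was similar across the libraries, at 16063987 to 18927440 reads. After scaling by the authors, the totals came to 13417113 and 15172430 normalised reads in cKO 3 and cKO 5, against 20427114, 15605280 and 18387391 in cKO 1, cKO 2 and cKO 4, so both low-Per2 libraries lay under the others. Mitochondrial genes took 6.09% and 4.74% of the normalised reads in cKO 3 and cKO 5, inside the 2.80% to 9.48% of the other 3. Genes of the Y chromosome were detected in all 10 libraries. Between cKO 3 and cKO 5, 10.6% of genes were 2-fold or more apart, against 8.28% between cKO 2 and cKO 4 and 12.4% to 20.1% in the remaining pairs of cKO libraries. Neither low-Per2 library was a copy of the other.

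In all, 14113 of 24368 genes had a mean of 10 or more normalised reads over the cKO libraries and entered. A gene was counted lower or higher when cKO 3 and cKO 5 both lay on one side of cKO 1, cKO 2 and cKO 4 and the nearest values, each plus 1, were at least 2-fold apart. By this rule 103 genes (0.73%) were counted lower and 53 (0.376%) higher. With no minimum fold, 1834 genes (13%) lay lower without overlap and 1540 (10.9%) higher. These percentages are the background for every count below, and since the same contrast chose the libraries nothing is read from the comparison. Scaling moved the balance. With each library scaled to its read total, 61 genes were counted lower and 122 higher, and the median difference of all genes between the low-Per2 and other cKO libraries moved from -0.01 to 0.33 on the log2 scale. With mitochondrial and the 50 most abundant genes left out of the totals, the counts were 71 and 98 and that median was 0.25. The lower genes made up 66.0% of those counted with the authors' scaling, 33.3% with read totals and 42.0% with the reduced totals. The part of the low normalised totals of cKO 3 and cKO 5 in these counts was not tested beyond these scalings. Leaving out a library asks 1 fewer value to stay apart, and gave 182 lower and 173 higher without cKO 1, 166 and 120 without cKO 2, 304 and 145 without cKO 3, 127 and 91 without cKO 4, and 331 and 172 without cKO 5.

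In the account by groups, values written as some against others are normalised reads of cKO 1, cKO 2 and cKO 4 against those of cKO 3 and cKO 5. List members that were not counted are named as examples chosen after their values were seen.

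The activators of the clock differed among themselves. Arntl (ENSMUSG00000055116, chromosome 7, 113207465 to 113314126) had 64.9, 91.9 and 112 normalised reads in cKO 1, cKO 2 and cKO 4 and 374 and 599.6 in cKO 3 and cKO 5, with 129.9, 186, 106, 107 and 128 in WT. Both low-Per2 libraries stood above every WT library and the other 3 cKO libraries stood inside or below the WT range, with the nearest values 3.32-fold apart. Npas2, a partner of ARNTL, had 406, 572 and 665 against 662 and 1119 normalised reads and overlapped. Clock itself, at 1413, 812 and 804 against 968 and 863, and Rora, at 111, 71.8 and 66.1 against 131 and 102, overlapped too. Arntl was the only activator counted higher among 5 measured.

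Of the 10 clock repressors, 6 were counted lower in cKO 3 and cKO 5 (Per1, Per2, Per3, Cry2, Nr1d2 and Ciart) and none higher. Per1 (ENSMUSG00000020893, chromosome 11, 69095217 to 69109960) had 421, 648 and 938 normalised reads in cKO 1, cKO 2 and cKO 4, 89.6 and 111 in cKO 3 and cKO 5, and 923, 863, 855, 546 and 949.7 in WT. Per3 had 116, 114 and 136 against 23.8 and 7.21, with 186, 142, 195, 141 and 179 in WT. For both genes the low-Per2 libraries stood under every other library of the series. Cry2 had 174, 284 and 365 normalised reads in cKO 1, cKO 2 and cKO 4 and 74.5 and 84.97 in cKO 3 and cKO 5, and Nr1d2 had 2322, 1734 and 1824 against 759 and 446. Ciart, a repressor of the CLOCK and ARNTL pair, had 43.2, 97.3 and 79.9 against 7.93 and 3.21, with 13.97 to 83.8 in WT. Nr1d1, the other REV-ERB gene, did not overlap either, at 1481, 2332 and 3322 against 892 and 735, but its nearest values were under 2-fold apart and cKO 3 and cKO 5 lay inside the broad WT range of 495 to 2505. Cry1 stood apart from the other repressors in the opposite direction, at 479, 399 and 494 normalised reads in cKO 1, cKO 2 and cKO 4, 807 and 1229.7 in cKO 3 and cKO 5 and 364 to 587 in WT. The nearest values of Cry1 were 1.63-fold apart, and it was counted higher when read totals or reduced totals replaced the authors' scaling. Bhlhe40 was lower without overlap at 1216, 2473 and 2411 against 578 and 1067, and Bhlhe41 overlapped, with 40.4 and 7.21 in cKO 3 and cKO 5. The median position of the repressors against the WT mean was -2.24 and -1.99 in cKO 3 and cKO 5 and -0.32, -0.22 and 0.07 in cKO 1, cKO 2 and cKO 4 on the log2 scale, where the median of all genes was 0.01 to 0.03 in the 5 libraries. With read totals or reduced totals the list had 4 lower genes, as Cry2 and Nr1d2 were not counted, and it had 8 without cKO 1 and 8 without cKO 3.

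The PAR bZIP factors were low together and Nfil3, their opponent at D-boxes, was high. Dbp (ENSMUSG00000059824, chromosome 7, 45705088 to 45710203) had 660.0, 978 and 780.3 normalised reads in cKO 1, cKO 2 and cKO 4, 165 and 48.1 in cKO 3 and cKO 5, and 836, 991, 1693, 471 and 850.0 in WT. Tef had 1738, 1816 and 2133 against 261 and 155, with 2185, 2116, 2355, 1859 and 2136 in WT, and its nearest values were 6.64-fold apart. Hlf had 136, 220.1 and 94.9 against 48.4 and 19.2, without overlap but under the 2-fold minimum. Each of these 3 genes was lower in cKO 3 and cKO 5 than in every WT library, and lower in cKO 5 than in cKO 3. Nfil3 had 34.3, 25.5 and 61.8 normalised reads in cKO 1, cKO 2 and cKO 4, 134 and 139 in cKO 3 and cKO 5, and 58.3, 39.5, 35.1, 64.8 and 60.6 in WT. No WT or other cKO library reached the low-Per2 pair for Nfil3. Summed over Dbp, Tef, Hlf and Nfil3, the level was 608 and 361 normalised reads in cKO 3 and cKO 5, 2569, 3039 and 3069.9 in cKO 1, cKO 2 and cKO 4, and 2509 to 4265 in WT.

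Of the markers given for these libraries, Per2 and Dbp were thus under the WT range and Arntl over it in both, while in cKO 1, cKO 2 and cKO 4 Dbp was inside the WT range, Per2 was under it and Arntl was inside or under it. The split made on Per2 thus separated Dbp and Arntl too, but genes of a single loop, measured in the same libraries, are not separate evidence for the split.

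Among 9 measured clock outputs, 2 were counted lower and none higher. Wee1, a kinase that holds cells before mitosis, had 2369, 2279 and 2542 normalised reads in cKO 1, cKO 2 and cKO 4, 289 and 337 in cKO 3 and cKO 5, and 3229, 1816, 1223, 1725 and 2276 in WT. The 3 other cKO libraries lay inside the WT range and the low-Per2 pair far under it, with the nearest values 6.75-fold apart. Tsc22d3, a glucocorticoid-induced gene also called Gilz, had 2984, 1982 and 1849 against 835 and 892, with 2370.4 to 3195 in WT. Usp2, a deubiquitinase, had 469, 748 and 845 against 212 and 326 and did not overlap, with nearest values 1.44-fold apart. Nampt (4359, 2309.9 and 2781 against 2198 and 2145) and Noct (4283, 5727 and 8791 against 2904 and 4053) did not overlap by small margins. Alas1, Por, Cdkn1a and Klf10 overlapped. Of 6 kinases and ubiquitin ligases that act on clock proteins, none was counted. Csnk1d, Csnk1e, Btrc, Fbxw11 and Gsk3b overlapped.

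**Figure D1:**
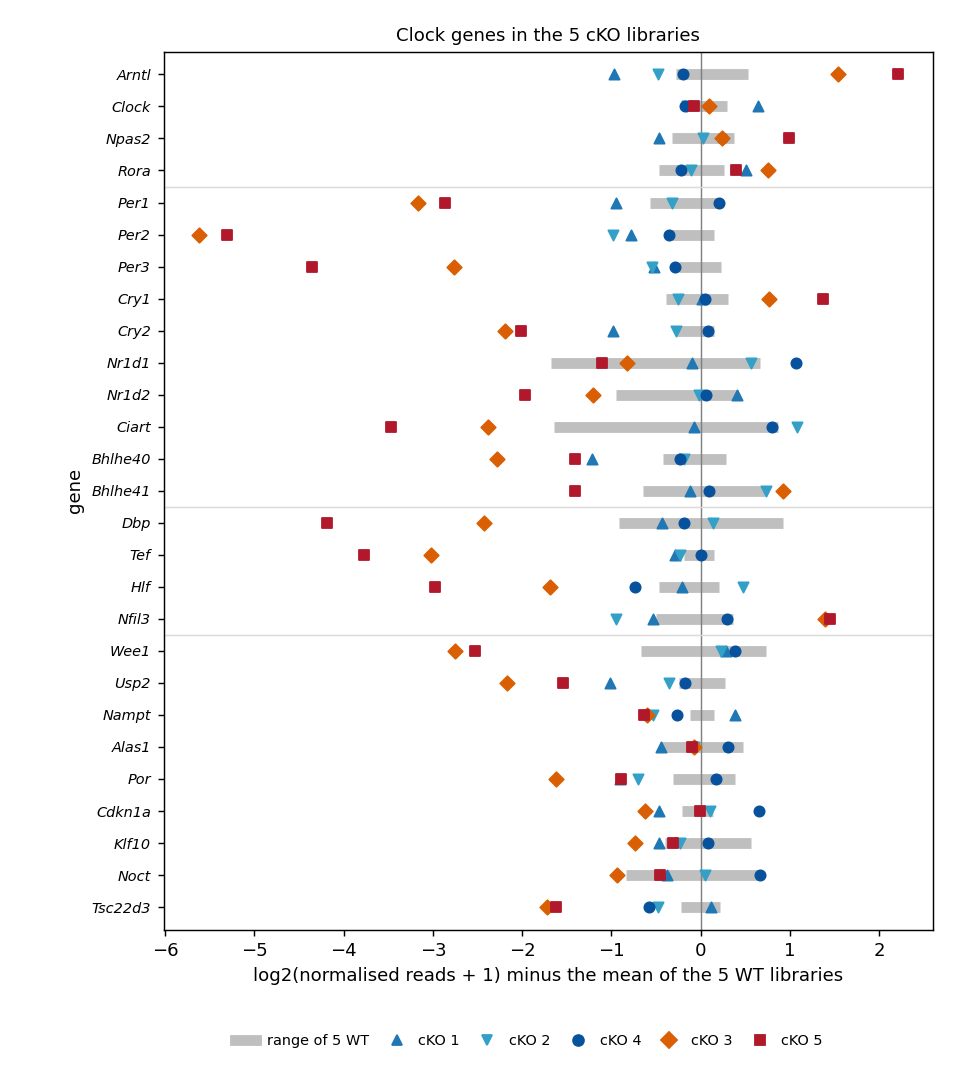
Clock genes on the y axis, grouped as activators, repressors, PAR bZIP factors with Nfil3, and outputs, with log2(normalised reads + 1) minus the mean of the 5 WT libraries on the x axis. Each point is 1 cKO library and each grey bar runs from the lowest to the highest WT library; cKO 3 and cKO 5 (orange and red) lie far left of all others for Per1, Per2, Per3, Tef and Wee1 and right of them for Arntl, Cry1 and Nfil3.

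The 103 lower and 53 higher genes were mostly outside the WT range in the low-Per2 libraries. Of the 103 lower genes, 86 lay under all WT libraries in both cKO 3 and cKO 5, and 10 lay inside the WT range in both. Of the 53 higher genes, 40 lay over the WT range in both and 6 inside it in both. For the lower genes the median position against the WT mean was -2.20 in cKO 3 and -2.14 in cKO 5 on the log2 scale, and -0.08, -0.19 and 0.23 in cKO 1, cKO 2 and cKO 4. For the higher genes it was 1.64 and 1.54, against -0.34, -0.32 and -0.46. Over all genes entered, 15.9% lay under the WT range in both low-Per2 libraries and 14.5% over it in both, and 4.45% and 4.14% did so in all of cKO 1, cKO 2 and cKO 4. Taken singly, 28.4% of genes lay under and 30.6% over the WT range in cKO 1, 20.3% and 20.5% in cKO 2, 30.2% and 30.1% in cKO 3, 19.3% and 21.2% in cKO 4, and 23.3% and 24.7% in cKO 5, so cKO 1 and cKO 3 were outside it most often. Of the counted genes, 88 lower and 35 higher ones were protein coding. Immunoglobulin V segments, which B cells rearrange and whose near-identical copies can share reads, made up 10 higher and 1 lower. How many genes of each kind entered was not counted, so nothing is read from these numbers. Bulk tissue cannot tell fewer cells of a type from less RNA per cell, here or in any list below.

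**Figure D2:**
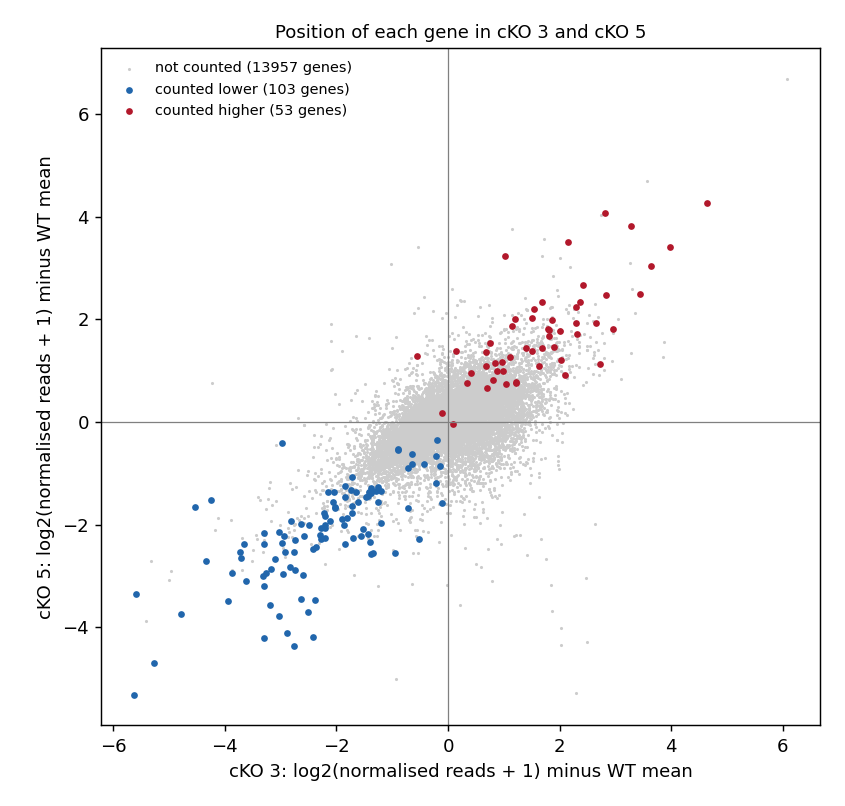
Each point is 1 of 14113 genes, with log2(normalised reads + 1) minus the mean of the 5 WT libraries in cKO 3 on the x axis and in cKO 5 on the y axis. The 103 genes counted lower (blue) lie mostly at lower left and the 53 counted higher (red) mostly at upper right, and a few uncounted genes lie at lower right, high in cKO 3 and low in cKO 5.

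After Per2, the widest gaps on the lower side among genes with a mean of 100 or more were those of Bco1 and Pck1. Bco1 (ENSMUSG00000031845, chromosome 8, 117095854 to 117133720), which splits beta-carotene into retinal, had 1328, 873 and 1191 normalised reads in cKO 1, cKO 2 and cKO 4, 30.1 and 63.3 in cKO 3 and cKO 5, and 1006, 609.6, 305, 1117 and 2146 in WT. Pck1 (ENSMUSG00000027513, chromosome 2, 173153048 to 173159273), the cytosolic enzyme that starts gluconeogenesis from oxaloacetate, had 4437, 10656 and 9583 against 293 and 438, with 10916, 11273, 11052, 8231 and 16993 in WT. The nearest values were 13.6-fold apart for Bco1 and 10.1-fold for Pck1, and both low-Per2 libraries lay under all WT libraries for each. For Pck1, cKO 1 also stood under the WT range. Dusp9, a phosphatase of MAP kinases, had 170.4, 104 and 228 against 10.3 and 14.4, with 66.8 to 349.8 in WT, and Ly6g6c had 916, 497 and 1063 against 91.2 and 131. Guca2b, which encodes the gut peptide uroguanylin and is named here after its values were seen, was the most abundant counted gene, at 23443, 16029 and 19689.8 against 3858 and 5247 normalised reads and 23091 to 29981 in WT.

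On the higher side the widest gap among genes with a mean of 100 or more was that of B3gnt7, a glycosyltransferase, at 159, 180.1 and 185 normalised reads in cKO 1, cKO 2 and cKO 4, 858 and 2212 in cKO 3 and cKO 5, and 176, 103, 253, 529 and 109 in WT. Nos2, the inducible nitric oxide synthase, had 167, 269 and 318 against 2204 and 971, with 381, 219.7, 705, 1819 and 329 in WT. For Nos2 the value of cKO 5 lay inside the WT range and that of cKO 3 above it. Arrdc4, an arrestin-domain protein related to Txnip, had 451, 710.3 and 572 against 2735 and 2142, with 349.8, 324, 356, 413 and 487 in WT, so both low-Per2 libraries exceeded every WT library. Slc9a3, the sodium-hydrogen exchanger of the brush border, had 1705, 1657 and 1675 normalised reads in cKO 1, cKO 2 and cKO 4, 3534 and 8402 in cKO 3 and cKO 5, and 3387, 2858, 3261, 3328 and 3292 in WT. For Slc9a3 the other 3 cKO libraries were the ones under the WT range, while cKO 3 was just above it and cKO 5 far above it. Myo10, a myosin of filopodia, had 601, 1092 and 1137 against 2747 and 2733, with 255 to 886 in WT. Gm14137 (31.8, 62.7 and 60.8 against 367 and 244) and Gm2061 (81.4, 98.2 and 182 against 461 and 444) also had wide gaps, of 3.84-fold and 2.43-fold, but genes with a Gm number, a Rik clone name or only an ID were left out of the 12 genes chosen for description. The remaining genes of those 12 were Slfn5 (103, 92.8 and 85.3 against 386 and 329), Ppp1r16b (86.5, 81.8 and 69.3 against 223 and 251), Nol4l (395, 364 and 346 against 839 and 1473) and Frmd4b (167, 181 and 182 against 377 and 626), with Arntl, Flt4 and Ifit2 described in their groups.

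**Figure D3:**
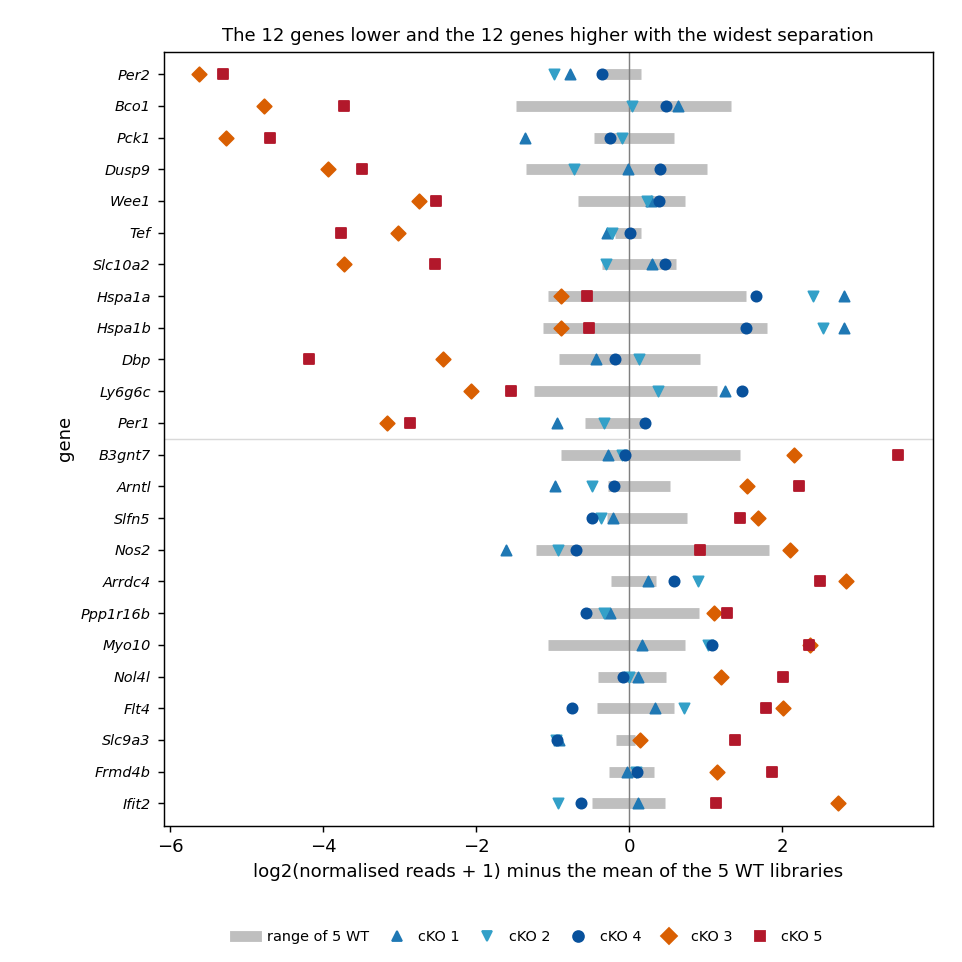
The 12 genes with the widest gap on the lower side (top) and the 12 on the higher side (bottom), leaving out genes with a Gm number, a Rik clone name or only an ID, on the y axis, with log2(normalised reads + 1) minus the mean of the 5 WT libraries on the x axis. Points are the 5 cKO libraries and grey bars the WT range; for Hspa1a and Hspa1b cKO 3 and cKO 5 lie inside the WT bar, and for Slc9a3 cKO 1, cKO 2 and cKO 4 lie under it.

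Targets of the glucocorticoid receptor, which links adrenal rhythm to peripheral clocks, included 4 lower genes of 9 measured and none higher. Fkbp5, a cochaperone that limits the receptor, had 581, 1055 and 1351 normalised reads in cKO 1, cKO 2 and cKO 4, 117 and 168 in cKO 3 and cKO 5, and 1133, 1136, 1124, 1888 and 2247 in WT. The low-Per2 pair stood under all other libraries of the series. Zbtb16 had 82.7, 100 and 67.2 against 30.9 and 9.62, with 32.7 to 90.96 in WT. The remaining 2 counted members, Per1 and Tsc22d3, belong to the clock lists as well. Sgk1 had 3244, 4733 and 4559 against 1008 and 2959.6 without overlap, and all 5 cKO libraries lay under its WT range of 6464 to 11473. Dusp1, Klf9, Scnn1a and the receptor gene Nr3c1 (1464, 1299 and 1238 against 1229 and 1458) overlapped. The list's median position was -0.96 and -1.61 in cKO 3 and cKO 5 and -0.22, -0.22 and -0.01 in the others on the log2 scale. With read totals or reduced totals, 2 of the 4 were counted, since Tsc22d3 and Zbtb16 were not.

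Of 13 heat shock and cold-inducible genes, Hspa1a and Hspa1b were counted lower and none higher. These 2 genes encode the inducible Hsp70 chaperone, and their near-identical copies can share reads. Hspa1a had 926, 700.3 and 418 normalised reads in cKO 1, cKO 2 and cKO 4, 70.5 and 89.8 in cKO 3 and cKO 5, and 68.5, 62.8, 382, 94.8 and 252 in WT. Hspa1b had 2430.1, 2001 and 1002 against 186 and 240.5, with 183, 158, 1207, 304 and 470.0 in WT. In both genes cKO 3 and cKO 5 were inside the WT range. For Hspa1a the other 3 cKO libraries were all above that range, and for Hspa1b cKO 1 and cKO 2 were. Hspa8, the constitutive family member, had 47474, 34172 and 28887 against 17955 and 17833, without overlap and with nearest values 1.61-fold apart. Hsp90aa1 (22694, 6210.4 and 6473 against 9165 and 7368) and the cold-inducible Rbm3 (3126, 1120.4 and 1254 against 1635 and 1241) overlapped, with cKO 1 highest for each. The cold-inducible Cirbp had 95.4, 127 and 118 against 129 and 176. The list's median position was -0.04 and 0.10 in cKO 3 and cKO 5 and 1.43, 0.39 and 0.20 in cKO 1, cKO 2 and cKO 4 on the log2 scale.

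Genes of fasting and of the lipid sensor PPAR alpha held 1 counted gene of 15, Ppara itself, at 127, 121 and 149 normalised reads in cKO 1, cKO 2 and cKO 4, 49.1 and 51.3 in cKO 3 and cKO 5, and 102 to 232 in WT. It was not counted with read totals or reduced totals. The target Pdk4, whose kinase spares glucose in fasting, came close together across the split at 174, 257 and 134 against 134 and 63.3, and Cpt1a, Angptl4 and Txnip overlapped. In all 6 of the 15 were lower without overlap and none higher.

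Triglyceride synthesis, the pathway in the study's title, had 1 counted gene of 15. Acsl3, which activates long-chain fatty acids, had 1401, 1449.6 and 1456 normalised reads in cKO 1, cKO 2 and cKO 4, 399 and 463 in cKO 3 and cKO 5, and 1953, 2033, 1729, 1670.0 and 2393 in WT. All cKO libraries lay under the WT range for Acsl3 and the low-Per2 pair far under the others, with nearest values 3.02-fold apart. Dgat2, which adds the last fatty acid of a triglyceride, had 14904, 14891 and 35082 against 4905 and 8049, with 21379 to 52343 in WT, and did not overlap. Dgat1 had 9075, 9797 and 13846 against 6185 and 8431, with 11501 to 13558 in WT. Mogat2, the monoacylglycerol acyltransferase of enterocytes, overlapped at 5327, 6782 and 11526 against 4294 and 7544, with 9683 to 12220.3 in WT. Of the 15 genes, 11 were under the WT range in both low-Per2 libraries and 3 were lower than in the other cKO libraries without overlap. Taken singly, 10 were under the WT range in cKO 1, 10 in cKO 2 and 3 in cKO 4. The median position was -0.98 and -0.38 in cKO 3 and cKO 5 and -0.48, -0.53 and 0.07 in cKO 1, cKO 2 and cKO 4 on the log2 scale, so cKO 5 lay above cKO 1 and cKO 2 and under cKO 4 for this list.

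Other absorptive lists also held few counted genes. The epithelial marker Epcam was itself lower in cKO 3 and cKO 5 than in any other library. For cKO 5 the margin was small (38128 against 38431 in cKO 2). Krt20 was lower in both too, at 144601, 155178 and 200035 against 79992 and 132052. Cdh1 overlapped, at 13562, 13549 and 18990 against 13816 and 21714, and cKO 5 was above its WT range of 11063 to 18838. The part of epithelial content in these lists was not tested. In sugar digestion and transport 1 of 10 was counted lower, the fructose transporter Slc2a5, at 5315, 3321 and 8207 normalised reads in cKO 1, cKO 2 and cKO 4, 1328 and 1324 in cKO 3 and cKO 5, and 4085 to 8174 in WT. The glucose transporters Slc5a1 (60747, 39541 and 61212 against 21364 and 30303) and Slc2a2 (19435, 6557 and 11746 against 3059 and 4808) were lower without overlap, at less than 2-fold. The brush border enzymes Sis and Lct overlapped. No gene was counted in peptide and amino acid uptake (15 measured), fatty acid uptake and binding (10), chylomicron assembly (14), lipid droplet genes (11) or microvillus structure (12). Without a minimum fold, 5, 5, 4, 5 and 2 of these were lower, and 1 chylomicron gene, Plagl2, was higher. Slc15a1, the peptide transporter of the brush border, had 15400.5, 12966 and 17032 against 6466 and 9299, and Apoa1 had 255616, 179521 and 224070 against 96386 and 131587. Apob (226227, 102283 and 146831 against 120737 and 158111) and Fabp1 (70459.9, 32283 and 45451 against 27812 and 35651) overlapped, and the abundant Fabp2 had 569523, 380359 and 430255 against 330494 and 214948. None of the 13 fatty acid synthesis and 21 cholesterol synthesis genes was counted. Scd1 had 1233, 99.1 and 1181 against 885 and 53.7, so cKO 3 sided with cKO 1 and cKO 4, and cKO 5 with cKO 2.

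Villus tip genes held 1 counted gene of 8. Nt5e, the ectonucleotidase CD73, had 7865, 9462 and 5084 normalised reads in cKO 1, cKO 2 and cKO 4, 1047 and 2198 in cKO 3 and cKO 5, and 11777 to 19508 in WT, with every cKO library under the WT range. It was not counted with read totals or reduced totals. Among bile acid and sterol transport genes (9 measured) and genes of the ileal end (4 measured), Slc10a2, the ileal bile acid transporter and a member of both lists, had 196, 128 and 221 against 11.1 and 26.5, with 242, 154, 173, 124 and 126 in WT. Cyp27a1, the sterol 27-hydroxylase and a member of the ileal list, had 399, 284 and 492 against 118 and 90.6, with 949 to 1419.6 in WT, and was under the WT range in all cKO libraries. Of the 4 ileal genes these 2 were counted lower and 2 overlapped. The 4 genes summed to 3280 and 3296 in cKO 3 and cKO 5, 2895 to 4687 in the other cKO libraries and 2758 to 3552 in WT. The defining ileal gene Fabp6 was at or near 0 in all libraries, at most 3.81 normalised reads in cKO 1. Of 5 duodenal genes none was counted, and Gata4 overlapped at 1289, 1559.7 and 2571 against 1366 and 2317, while Onecut2 was higher without overlap at 427, 387 and 417 against 728 and 681. No gene of xenobiotic metabolism (19 measured) was counted, and 8 were lower without overlap, among them Cyp3a13, at 50943, 34645 and 38054 against 24320.1 and 24650.3. Abcg2, a drug exporter, overlapped at 9182, 5016 and 4420.4 against 7765 and 7995 and exceeded its WT range of 2629 to 3813 in every cKO library.

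The unfolded protein response list had 2 lower and 1 higher gene of 17. Trib3, a pseudokinase induced by stress, had 731, 638 and 1001 normalised reads in cKO 1, cKO 2 and cKO 4, 113 and 185 in cKO 3 and cKO 5, and 745, 716, 1114, 745 and 1092 in WT. Herpud1, of the degradation machinery of the endoplasmic reticulum, had 2993, 3105 and 4079 against 1160.4 and 1122, with 3242 to 5146 in WT, and was not counted with read totals or reduced totals. Chac1, which breaks down glutathione, was higher, at 12.7, 17.3 and 27.7 against 61.8 and 63.3, but its WT range of 2.05 to 61.8 covered nearly all of that. The chaperone genes Hspa5 (36769, 19804 and 24176 against 20632 and 22677) and Hsp90b1 overlapped, and so did Atf4 and Xbp1. The list's median position was 0.02 and 0.32 in cKO 3 and cKO 5, and 0.02, 0.00 and 0.44 in cKO 1, cKO 2 and cKO 4, on the log2 scale.

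Interferon response genes held 1 counted gene of 20. Ifit2 had 145, 70.03 and 86.3 normalised reads in cKO 1, cKO 2 and cKO 4, 891 and 295 in cKO 3 and cKO 5, and 131, 95.2, 141, 132 and 185 in WT. Of the low-Per2 pair, cKO 3 stood far above cKO 5. Without a minimum fold, 9 of the 20 were higher and 1 lower. Ifi44 had 444, 193 and 233 against 929 and 783 and Oas1a had 956, 1024 and 795 against 1465 and 1513. The low-Per2 libraries lay inside the WT range for both genes (254 to 1227 and 873 to 2229.6), and the Ifi44 values of cKO 2 and cKO 4 and the Oas1a value of cKO 4 lay under it. Irf1, Irf7 and Irf9 overlapped. The list's median position was 0.13 and -0.18 in cKO 3 and cKO 5 and -0.22, -0.34 and -0.55 in cKO 1, cKO 2 and cKO 4 on the log2 scale, with -0.49 to 0.25 in WT. Of 11 antimicrobial genes, Nos2 was counted higher, and none lower.

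Among markers of cells outside the epithelium, 1 gene was counted. This was Flt4, a receptor of lymphatic endothelium and 1 of 9 measured endothelial markers, at 71.2, 92.8 and 33.04 normalised reads in cKO 1, cKO 2 and cKO 4, 229 and 196 in cKO 3 and cKO 5, and 64.4, 58.7, 84.8, 41.9 and 42.2 in WT. Prox1, which sets lymphatic identity, had 25.4, 28.2 and 21.3 against 49.1 and 56.1, and Pecam1 had 68.7, 110.0 and 44.8 against 162 and 123. All 9 markers were above the WT range in both low-Per2 libraries and also in cKO 2, against 3 in cKO 1 and 1 in cKO 4, and 6 were higher in the low-Per2 pair than in the other cKO libraries without overlap. The summed level of the 9 markers was 1927 and 1609 in cKO 3 and cKO 5, 1183, 1084 and 1288 in cKO 1, cKO 2 and cKO 4, and 551 to 696 in WT, with none at 0. The lymphatic marker Lyve1 held the largest share of each sum, at 776, 513 and 1029.7 against 1045 and 917, and it overlapped. Of 8 myeloid and mast cell markers none was counted and 6 were higher without overlap, with summed levels of 4283 and 3412 against 2637, 3042 and 2215 and 2068 to 3923 in WT. The part of these cells in the gene lists above was not tested. No gene was counted among markers of fibroblasts (11 measured), smooth muscle (10), T cells (10), B and plasma cells (9), neurons and glia (7), erythroid cells (5), adipocytes (7) or pancreas (1). Smooth muscle summed to 76492 and 33240.4 in cKO 3 and cKO 5 and 49794, 74309.5 and 63006 in cKO 1, cKO 2 and cKO 4, so the low-Per2 pair held both the highest and the lowest library.

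Among epithelial cell types, none of 20 proliferation, 9 crypt base stem cell, 11 Paneth, 10 goblet, 16 enteroendocrine and 7 tuft cell genes was counted. Proliferation genes were higher without overlap in 6 cases and lower in 1, and the median position was 0.79 and 0.69 in cKO 3 and cKO 5 and 0.58, -0.21 and 0.30 in cKO 1, cKO 2 and cKO 4 on the log2 scale, so cKO 1 lay with the low-Per2 pair. Top2a, for example, had 871, 194 and 310.2 against 591 and 581, and the stem cell gene Olfm4 had 2692, 572 and 555 against 2609 and 1492. The goblet cell gene Zg16 was lower without overlap at 44604, 40877 and 39891 against 23174 and 23053. Trpm5, the ion channel of tuft cell taste signalling, was higher without overlap at 319, 342 and 259 against 672 and 1176, with nearest values 1.96-fold apart and 226 to 285 in WT, and it was counted with read totals or reduced totals. Paneth cell genes varied among all mice, as Lyz1 had 11373, 2915 and 1029.7 against 1351 and 3932, with 602 to 4415 in WT. Immediate early genes (16 measured), MHC class II genes (7) and genes of the mitochondrial genome (12) had no counted member either.

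**Figure D4:**
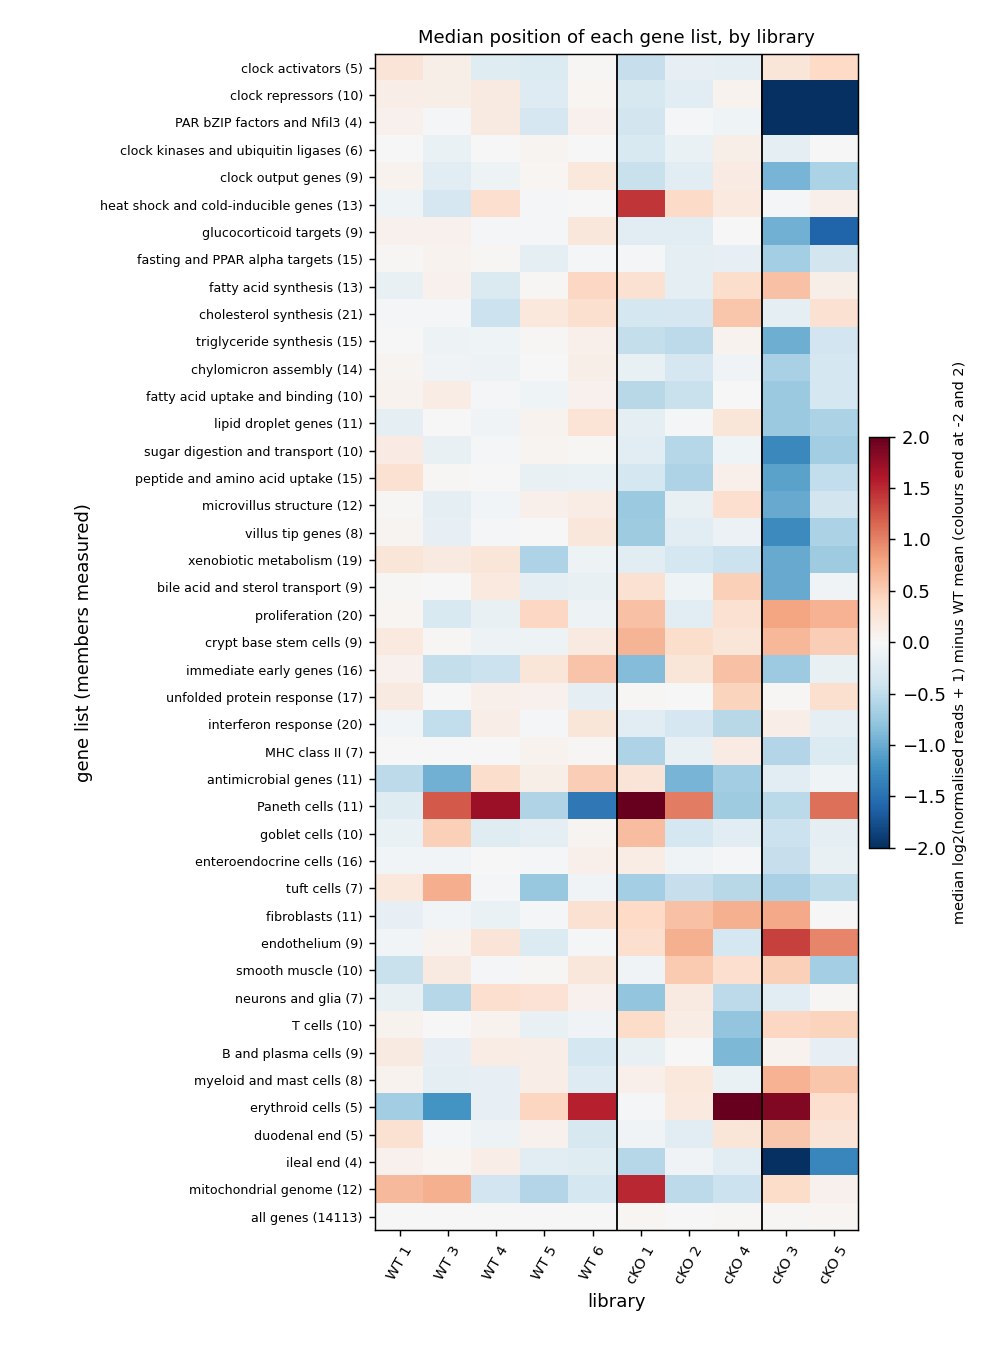
Gene lists with the number of measured members on the y axis and the 10 libraries on the x axis, with colour giving the median over members of log2(normalised reads + 1) minus the WT mean, with colours ending at -2 and 2 and the adipocyte, pancreas and sex chromosome lists not drawn. Clock repressors and PAR bZIP factors are dark blue in cKO 3 and cKO 5 alone, and glucocorticoid targets are blue in both. The ileal end list (4 measured genes) is blue in both as well, at -2.88 and -1.30, while its summed level lay inside the WT range in both. Sugar digestion and transport is blue in both (-1.29 and -0.69) and also in cKO 2 (-0.57). For peptide and amino acid uptake cKO 2 (-0.61) lies under cKO 5 (-0.49). Endothelial markers are red in cKO 3 and cKO 5 and also in cKO 2 (0.71), while Paneth, erythroid and mitochondrial lists vary among libraries of either label.

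The 2 low-Per2 libraries also differed from each other. Among genes with a mean of 100 or more, the widest differences between them were in Cfd, an adipocyte complement factor, with 189 normalised reads in cKO 3 and 0 in cKO 5, Wdr72 (108 and 0), Car3 (345 and 6.41) and the Paneth defensin Defa22 (16.6 and 303). The same genes varied among the WT libraries, from 0 to 531 for Cfd and from 5.85 to 996 for Car3. Within the clock genes, cKO 5 had the lower value of the pair for Per3, Ciart, Dbp, Tef and Hlf and the higher value for Arntl, Npas2 and Cry1, and it was slightly higher for Per1 and Per2. For the absorptive lists cKO 3 lay lower, with a median position of -1.07 against -0.49 in cKO 5 for peptide and amino acid uptake and -1.29 against -0.69 for sugar digestion and transport, on the log2 scale.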

How the data were processed

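The members and gene lists were chosen with earlier results of these data known. The submitters' processing notes name CASAVA, HISAT2 2.0.5, featureCounts 1.5.0-p3, DESeq2 1.20.0 and the mm10 build. Which strand was counted, and with which annotation, stands in no source used here. Overlapping and antisense genes therefore cannot be told apart. The authors deposited, for each gene, a normalised signal in every library, which from the values is a read count divided by 1 factor per library (every value was a whole multiple of the smallest within 0.001). Depth was 16063987 to 18927440 reads, so a value of 1 stands for about 1 read, and counting error is widest for low genes. The authors' deposited fold changes and p-values, and 2 per-sample columns whose names match no label, were not used.

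The split followed the Per2 limit of 100. Genes with a cKO mean of 10 or more were compared as log2(value + 1) with Python 3.11.15, pandas 2.3.3 and numpy 2.4.6. The count rule was run on simulated counts only to check the code. Those counts were drawn gene by gene with no shift in scaling, so they do not measure the error of the rule in these data. Figures used matplotlib 3.10.9. No test, p-value or interval was made, because the contrast chose the libraries. The 5 WT libraries served as a reference range. Named genes were all clock-list genes, the 12 lower and 12 higher genes with the widest gap and a mean of at least 100 (no Gm numbers, Rik clones or bare IDs), up to 4 counted genes of each of 45 lists (with none, 2 of the most abundant as values), and the 4 most unlike between cKO 3 and cKO 5; a few of them are not reported here. Alternatives were other pseudocounts, mean and fold minimums, scalings and leaving out each library. Promoters were matched by symbol to RefSeq on GRCm38.p6.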

Additional observations from a re-analysis of the deposited data

Results flagged for a closer look

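In each group of 5 libraries, the highest or lowest value of each of the 119 named genes was compared with its nearest neighbour, and a gap over 0.71 of the group's range was noted. Of 238 groups, 21 had such a gap. No chance rate is set beside this, because the genes share the same libraries and many were chosen by the split. Within the low-Per2 pair these were the highest cKO values of Slc9a3 (8402 normalised reads in cKO 5, next 3534), Ifit2 (891 in cKO 3, next 295) and Cela1 (205 in cKO 3, next 131). Cela1 was the only measured gene of 9 in the pancreas list and had 114 to 197 in WT. In cKO 1 the gaps were at the highest cKO values of Clock (1413), Nampt (4359), Pcna (1685), Lyz1 (11373), mt-Co1 (842706) and Eif2s3y (1745), and in cKO 4 at those of Insig1 (4444) and Wdr72 (520.2). In WT the gaps were at the lowest values of Per1 (546 in WT 5), Per2 (529 in WT 3), Slc9a3 (2858 in WT 3) and Apoa1 (168788 in WT 1). The WT libraries also held the highest values of Btrc (121 in WT 5), Tubb3 (159 in WT 5), Slfn5 (202 in WT 6), Col3a1 (1542 in WT 6), Cyp27a1 (1419.6 in WT 6) and Defa22 (392 in WT 4). Of the 21, 6 fell in cKO 1, and 3 in cKO 3 and cKO 5 together. Counted genes were chosen with cKO 3 and cKO 5 on the same side, which makes a lone extreme in either less likely. This tally therefore does not compare the libraries.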

How the results depend on the processing

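Counts are given as lower and higher genes, from 103 and 53 as reported. They were 61 and 122 with read totals, 71 and 98 with totals without mitochondrial and the 50 most abundant genes, 69 and 22 with 10 added to each value, 51 and 16 with a cKO mean of 100 or more, 222 and 147 with a mean of 1 or more, 282 and 164 at 1.5-fold, 18 and 5 at 4-fold, and 1834 and 1540 with no minimum fold. Upper quartile scaling gave 116 and 48, and adding 0.1 gave 113 and 56. Leaving out each cKO library in turn gave 127 to 331 lower and 91 to 173 higher genes, since fewer values then had to stay apart. All 41 named counted genes stayed counted each time. A gap cannot narrow when a library is left out, so only the mean minimum could have removed any of them. Of these 41 genes, 33 stayed counted with read totals, 34 with the reduced totals, 40 with upper quartile scaling (Ifit2 was lost), 37 with 10 added (Chac1, Cry2, Ifit2 and Zbtb16 were lost) and 12 at 4-fold. No named gene with a gap as reported changed direction under any alternative run. Named genes that overlapped had no direction to change, and among the alternatives only the scalings could have reversed an order between libraries. No paired analysis was possible because the values come from no test and the split lies within the cKO group. Depth limits the lowest genes, such as Per2 with 16 and 20 reads in cKO 3 and cKO 5.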

Other observations

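Counted genes that belong to none of the lists are given as values only, and all of them were named after their values were seen. Abcc2, an exporter of conjugated compounds, had 6991, 3926 and 5753 normalised reads in cKO 1, cKO 2 and cKO 4, 1578 and 1527 in cKO 3 and cKO 5, and 3126 to 6869 in WT. The phosphate transporter Slc20a1 had 1049, 579 and 834 against 169 and 161, with 548 to 1636 in WT, and Cubn, the intrinsic factor receptor, had 367, 364 and 627 against 91.2 and 139, with 208 to 550.2 in WT. Gja4, a connexin gene of gap junctions, had 59.8, 71.8 and 141 against 7.13 and 6.41. The antimicrobial peptide gene Leap2 had 3131, 2896 and 3350.2 against 1112 and 1069, with 1506 to 4052 in WT. On the higher side, Dusp2 (10.2, 6.37 and 8.53 against 22.2 and 27.3), Nox1 (10.2, 2.73 and 6.396 against 39.6 and 26.5) and the water channel Aqp8 (0, 5.46 and 0 against 13.5 and 33.7) had few reads.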
